A study of Mus musculus with 20 samples.

Results

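The genes described here encode the enzymes that load amino acids onto tRNA in mice. They comprise 20 cytosolic aminoacyl-tRNA synthetase genes, 16 mitochondrial ones, whose symbols end in 2, and 3 scaffold genes of the multisynthetase complex (Aimp1, Aimp2 and Eef1e1). They were chosen by symbol, as rows of both count tables whose identifier maps to 1 of 39 listed symbols in the GENCODE annotation of GRCm38, and all 39 were found, of 46649 genes present in both tables. RNA was sequenced from hearts of 5 Taz-KD and 5 WT mice and from femur muscle of another 5 Taz-KD and 5 WT mice, with 1 library per mouse. Taz-KD mice carry the transgene ROSA26H1/tetO-shRNA:TAZ, which drives a hairpin RNA against Taz in the whole animal, and WT mice are C57BL/6N. Both genotypes ate chow with 625 mg/kg doxycycline, the inducer of the hairpin, until the experiment ended at 20 weeks of age. No group without doxycycline and none with a control hairpin was analysed here. Taz encodes tafazzin, the mitochondrial enzyme that remodels cardiolipin and is defective in Barth syndrome. It measured 11.7 ± 0.731 CPM (SD, n = 5, on the counts-per-million scale with TMM factors) in Taz-KD hearts and 37.8 ± 1.40 CPM (n = 5) in WT hearts, and 13.4 ± 1.05 CPM in Taz-KD muscle against 51.7 ± 3.42 CPM in WT muscle, with no overlap between genotypes in either tissue.

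Aminoacyl-tRNA synthetases join each amino acid to its own tRNAs and so supply the ribosome with its substrates. The cytosol and the mitochondria use separate sets of these enzymes, all encoded in the nucleus, except that Gars (glycine) and Kars (lysine) each serve both compartments from a single gene. In animals a number of cytosolic synthetases are held together with the 3 scaffold proteins in the multisynthetase complex, while the others act free in the cytosol. Many cytosolic synthetase genes are known targets of ATF4, the transcription factor of the integrated stress response, which binds amino acid response elements in promoters and introns.

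Promoter windows from 250 before to 50 after the start of the gene, were taken from RefSeq (GRCm38.p6) for 30 of the 39 members, and searched on both strands for the amino acid response element TGATGNAA. It was found in 5 of 13 cytosolic promoters, in 0 of 14 mitochondrial promoters and in 0 of 3 scaffold promoters, against 4.51% of all 27025 genes of the promoter table and 2.87% of the 11179 table entries for protein-coding genes tested in heart. The form TGATGCAA, which is 1 case of the first motif, stood in 4 cytosolic promoters, against 1.03% of all genes of the table. The promoters that hold a match are shown because their genes are among those that rose in Taz-KD hearts below. Capitals mark the match, in reverse complement where it lies on the minus strand of the gene.
Gars promoter (chr6:55037751-55038050, plus strand): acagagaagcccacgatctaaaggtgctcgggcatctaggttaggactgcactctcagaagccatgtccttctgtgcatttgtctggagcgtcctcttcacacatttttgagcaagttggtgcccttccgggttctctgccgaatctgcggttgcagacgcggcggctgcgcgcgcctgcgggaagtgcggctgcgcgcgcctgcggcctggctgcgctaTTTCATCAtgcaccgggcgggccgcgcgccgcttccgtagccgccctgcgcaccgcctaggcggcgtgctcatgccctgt
Iars promoter (chr13:49681880-49682179, plus strand): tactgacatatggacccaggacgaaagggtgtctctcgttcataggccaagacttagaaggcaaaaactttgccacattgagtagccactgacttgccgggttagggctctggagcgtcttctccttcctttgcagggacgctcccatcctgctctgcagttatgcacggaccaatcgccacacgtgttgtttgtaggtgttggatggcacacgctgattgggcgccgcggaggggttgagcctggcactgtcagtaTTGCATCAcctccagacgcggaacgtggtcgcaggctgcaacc
Yars promoter (chr4:129189653-129189952, plus strand): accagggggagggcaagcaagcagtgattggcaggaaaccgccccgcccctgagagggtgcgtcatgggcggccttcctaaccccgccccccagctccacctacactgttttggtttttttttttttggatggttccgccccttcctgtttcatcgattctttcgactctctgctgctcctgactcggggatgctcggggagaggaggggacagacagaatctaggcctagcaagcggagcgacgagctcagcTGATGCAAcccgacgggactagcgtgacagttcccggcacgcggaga
Aars promoter (chr8:111033592-111033891, plus strand): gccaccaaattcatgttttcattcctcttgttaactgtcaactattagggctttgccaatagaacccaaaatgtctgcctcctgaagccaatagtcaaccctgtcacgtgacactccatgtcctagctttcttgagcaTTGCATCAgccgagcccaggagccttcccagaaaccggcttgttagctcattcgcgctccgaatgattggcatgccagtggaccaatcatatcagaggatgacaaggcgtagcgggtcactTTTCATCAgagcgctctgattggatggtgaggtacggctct
Tars promoter (chr15:11399609-11399908, minus strand): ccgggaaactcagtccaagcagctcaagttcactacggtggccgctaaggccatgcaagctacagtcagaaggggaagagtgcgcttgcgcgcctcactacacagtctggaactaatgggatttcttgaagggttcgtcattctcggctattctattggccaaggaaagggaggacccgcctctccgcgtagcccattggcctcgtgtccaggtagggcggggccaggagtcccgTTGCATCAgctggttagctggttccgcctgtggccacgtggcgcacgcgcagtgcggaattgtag

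With the RefSeq start that defines each window counted as 0, the matches begin at base -30 in Gars, 7 in Iars, 3 in Yars, -15 in Tars, and -112 and 9 in Aars. These starts are not the GENCODE starts of the same genes, and the whole window of Aars lies inside the GENCODE gene. The match of Yars lies on the strand of the gene and the others on the opposite strand. Gars and the match of Aars after the start have the form TGATGAAA. In heart the log2 fold changes (Taz-KD over WT) of these 5 genes ran from 1.13 (Tars) to 2.85 (Gars), with a median of 1.76, and those of the 8 cytosolic genes with no match in the window ran from 0.10 (Farsa) to 2.19 (Eprs), with a median of 0.55. Counted by gene identifier, a few of which share a table entry, 20.2% of 321 with the motif and 17.7% of 10862 without it passed the test as higher in Taz-KD hearts, over all protein-coding genes tested. Of the 10 integrated stress response genes listed below, 4 promoters hold the motif (Trib3, Asns, Chac1 and Atf3). A match is a run of letters and was not tested as a binding site. Cars, Hars, Lars, Nars, Rars, Vars, Wars, Hars2 and Pars2 were not searched.

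Total counts per library were 30248445 to 35301909 in Taz-KD hearts, 26963288 to 30090918 in WT hearts, 46985694 to 74361382 in Taz-KD muscle and 36429399 to 61100247 in WT muscle. Every member had at least 66 counts in every library, and all 39 passed the low-count filter in both tissues. Genotypes were compared gene by gene with edgeR's quasi-likelihood test over all 19486 genes tested in heart and 16145 in muscle, and a gene was said to rise or fall where its Benjamini-Hochberg adjusted p was under 0.05. Among the muscle libraries, A33 and A55 (both WT) stood out in several marker lists. A33 was highest for lymphocyte markers (171 CPM, median of WT 1.03) and macrophage markers (94.4 CPM, median of WT 52.1). A55 was highest for cardiomyocyte markers (3403 CPM, median of WT 681) and Schwann cell markers (651 CPM, median of WT 96.0). It was also the highest for endothelial, smooth muscle and red cell markers. The adipocyte markers summed to 10.0 to 215 CPM in Taz-KD and 47.8 to 2115 CPM in WT muscle (medians 84.8 and 443 CPM), highest in A33, and the markers of skeletal muscle fibres were lowest in A55, with 117208 to 185483 CPM in Taz-KD muscle and 62987 CPM in A55. Cardiomyocyte markers were high in every heart, 39534 to 53874 CPM in Taz-KD and 41574 to 56055 CPM in WT. In whole tissue, more cells of a type and more RNA per cell cannot be told apart.

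In heart the cytosolic synthetases rose nearly as a set. Of the 20 genes, 18 rose and 0 fell (0 also with DESeq2 and at an unadjusted p under 0.05), where 14.4% of all tested genes rose and 10.3% fell, and their median log2 fold change was 1.41, beside -0.02 over all tested genes. In 19 of them every Taz-KD heart lay above every WT heart, which held for 11.3% of all tested genes. Summed over the 20 genes, the level was 2703 ± 245 CPM in Taz-KD hearts and 867 ± 41.9 CPM in WT hearts (SD, n = 5 each), a ratio of 3.12. Of the 16 mitochondrial synthetases 0 rose and 1 fell (median -0.00). At an unadjusted p under 0.05, 2 of them were higher, beside 3836 of all 19486 tested genes, and 0 were higher with DESeq2. All 3 scaffold genes rose (median 0.50). The rise was uneven inside the cytosolic set, as the plot of the fold changes of all members shows.

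**Figure D1:**
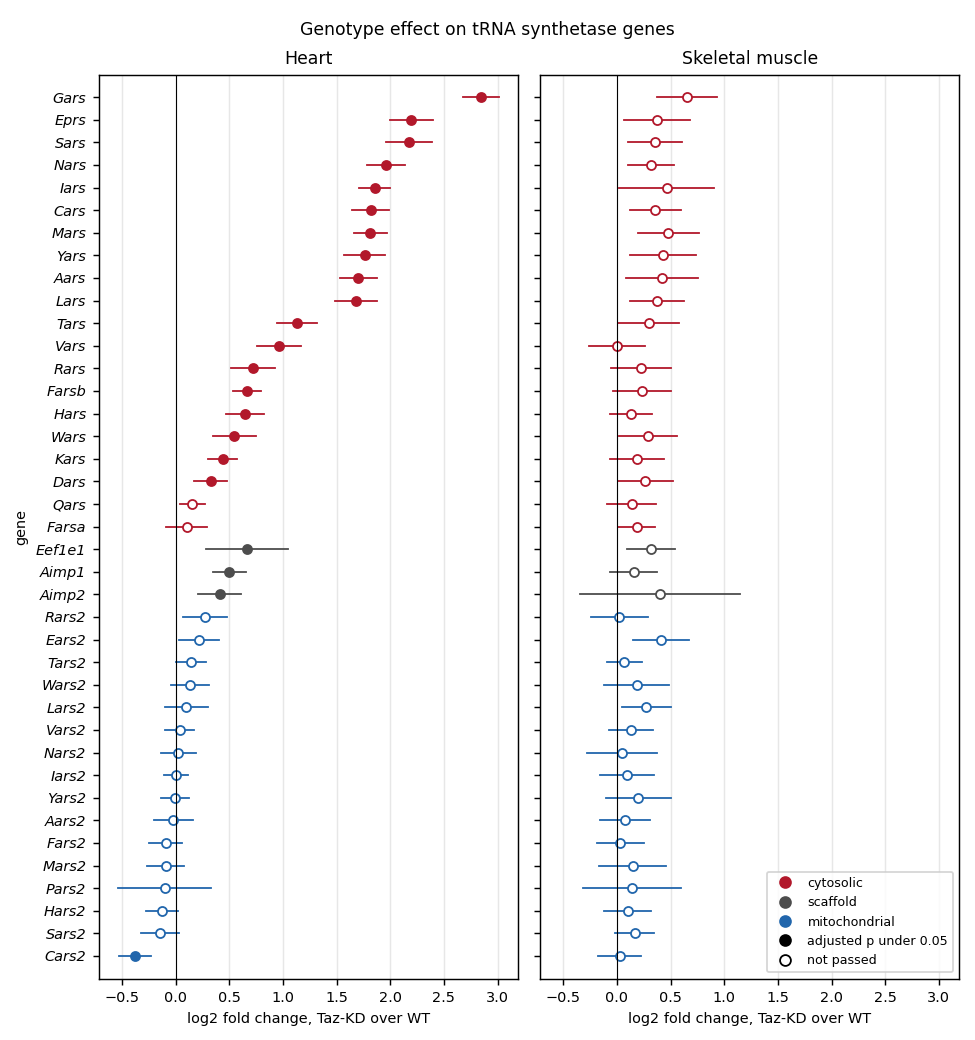
Log2 fold change of Taz-KD over WT (points) with its 95% interval (lines) for each of the 39 genes in heart (left) and skeletal muscle (right), with 5 libraries per genotype, in the order of the heart values within each role. Filled points passed edgeR's test at an adjusted p of 0.05; in heart 18 of 20 cytosolic genes, 3 of 3 scaffold genes and, as lower, Cars2 are filled, and in muscle none is.

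The libraries are given in the order R2, R1793, R1796, R1797 and R1798 for Taz-KD hearts and R3, R1791, R1792, R1795 and R1800 for WT hearts. Gars (ENSMUSG00000029777, chromosome 6 from 55038007 to 55079500 of GRCm38), which charges glycine tRNA in both compartments, measured 342, 382, 412, 328 and 340.2 CPM in Taz-KD hearts, against 48.1, 48.0, 48.5, 53.1 and 53.2 CPM in WT hearts. This was the largest rise of the set (log2 fold change 2.85 with an SE of 0.08, edgeR adjusted p = 7.73e-10), 7.19-fold, and the lowest Taz-KD heart stood far above the highest WT heart. Eprs (ENSMUSG00000026615, chromosome 1 from 185363044 to 185428360 of GRCm38), a fused enzyme for glutamate and proline and a member of the multisynthetase complex, measured 694, 527, 681, 536 and 615 CPM in Taz-KD hearts, against 122, 143, 129, 135 and 138 CPM in WT hearts. Its Taz-KD hearts were all above its WT hearts, with the highest values in R2 and R1796 (log2 fold change 2.19 with an SE of 0.09, edgeR adjusted p = 9.12e-09). Sars (ENSMUSG00000068739, chromosome 3 from 108424865 to 108445209 of GRCm38), the serine enzyme, measured 192, 177, 221, 158 and 164 CPM in Taz-KD hearts, against 36.6, 37.0, 40.1, 42.2 and 45.7 CPM in WT hearts, and the genotypes did not overlap (log2 fold change 2.18 with an SE of 0.10, edgeR adjusted p = 1.71e-08).

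Nars (ENSMUSG00000024587, chromosome 18 from 64499647 to 64516652 of GRCm38), the asparagine enzyme, measured 178, 185, 219, 157 and 173 CPM in Taz-KD hearts, against 47.3, 44.9, 46.0, 48.9 and 47.7 CPM in WT hearts. R1796 stood highest among the Taz-KD hearts, and the WT hearts lay within a narrow band (log2 fold change 1.96 with an SE of 0.08, edgeR adjusted p = 9.12e-09). Iars (ENSMUSG00000037851, chromosome 13 from 49682100 to 49734267 of GRCm38), the isoleucine enzyme of the complex, measured 260.1, 244, 271, 235 and 239 CPM in Taz-KD hearts, against 61.9, 69.0, 67.9, 73.4 and 73.1 CPM in WT hearts, with no overlap (log2 fold change 1.85 with an SE of 0.07, edgeR adjusted p = 4.08e-09). A pseudogene copy, Gm4849, shares 1656 bases with the transcript of Iars at 96.0% identity and measured at most 0.208 CPM in any heart, and how reads were split between them was not tested. Cars (ENSMUSG00000010755, chromosome 7 from 143557230 to 143600090 of GRCm38), the cysteine enzyme, measured 59.5, 59.4, 66.6, 51.02 and 54.2 CPM in Taz-KD hearts, against 16.3, 15.5, 15.6, 17.3 and 17.9 CPM in WT hearts, again with every Taz-KD heart above every WT heart (log2 fold change 1.82 with an SE of 0.08, edgeR adjusted p = 1.14e-08).

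**Figure D2:**
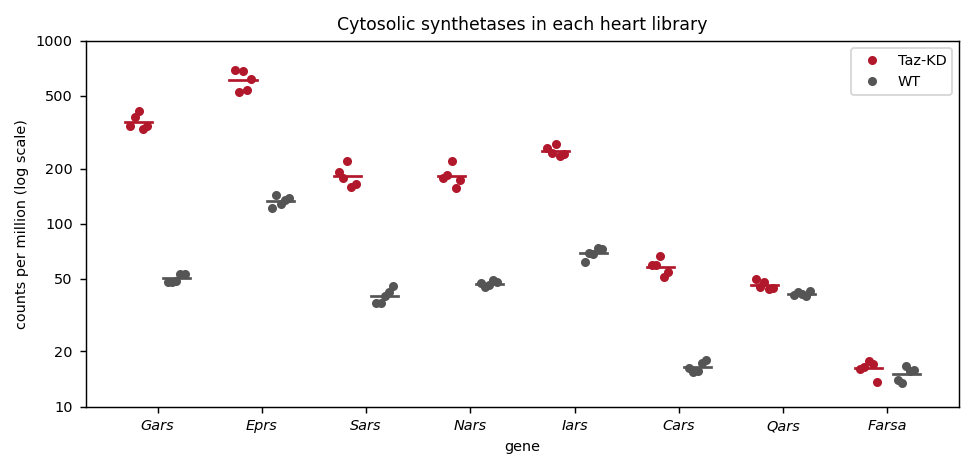
CPM (log scale) of 8 cytosolic synthetases in each heart library (points), Taz-KD left of WT, with the mean of 5 libraries as a line. The 6 genes on the left do not overlap between genotypes; Qars differs by little and Farsa overlaps.

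A further 4 genes rose by more than 1.5 on the log2 scale, so that 10 of the 20 lay between 1.68 and 2.85 and the other 10 at or below 1.13. The line between them was drawn after the values were seen. Mars, which charges both the initiator and the elongator methionine tRNA, averaged 124 ± 9.72 CPM in Taz-KD and 35.4 ± 2.31 CPM in WT hearts (log2 fold change 1.81). Its exons share 68 bases with Ddit3 on the other strand, a gene of the integrated stress response that rose as well. Yars, the tyrosine enzyme, averaged 80.5 ± 8.54 CPM in Taz-KD and 23.8 ± 2.31 CPM in WT (1.76). For Aars, the alanine enzyme, the means were 169 ± 15.9 CPM in Taz-KD and 52.1 ± 4.28 CPM in WT (1.70), and 1326 of its exon bases also belong to Exosc6 on the same strand, which was not analysed here in heart. Lars, the leucine enzyme and a leucine sensor of the mTORC1 pathway, averaged 169.8 ± 23.9 CPM in Taz-KD and 52.9 ± 2.58 CPM in WT (1.68). Adjusted p of these 4 was between 5.40e-09 and 8.09e-08.

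The remaining 8 genes that rose did so by less. Tars (threonine) averaged 50.3 ± 7.05 CPM in Taz-KD and 23.0 ± 0.905 CPM in WT hearts (1.13), and Vars (valine) 78.6 ± 12.2 CPM in Taz-KD and 40.4 ± 2.66 CPM in WT (0.96). Rars, the arginine enzyme of the complex, averaged 39.96 ± 4.28 CPM in Taz-KD and 24.2 ± 2.96 CPM in WT (0.72). Wars, the tryptophan enzyme, is known to be induced by interferon gamma. It averaged 53.2 ± 5.14 CPM in Taz-KD and 36.4 ± 4.37 CPM in WT (0.55), while of 11 tested interferon-induced genes 0 rose and 6 fell, among them Gbp2 (-0.62) and Psmb8 (-0.50), and the list summed to 74.2 to 96.3 CPM in Taz-KD and 97.9 to 120.1 CPM in WT hearts. The part of interferon signalling in the value of Wars was not tested. Kars, whose product serves cytosol and mitochondria, averaged 86.3 ± 5.18 CPM in Taz-KD and 63.7 ± 4.05 CPM in WT (0.44), a small rise beside that of Gars, the other gene with both destinations. Dars, the aspartate enzyme of the complex, had the smallest rise that passed, with 66.8 ± 5.21 CPM in Taz-KD and 53.3 ± 4.11 CPM in WT (log2 fold change 0.33 with an SE of 0.07, edgeR adjusted p = 0.00496). It did not pass in a fit of all 20 libraries (adjusted p = 0.101).

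Farsa and Qars were the cytosolic genes that did not pass in heart. Farsa (ENSMUSG00000003808, chromosome 8 from 84856989 to 84869257 of GRCm38), the catalytic subunit of the phenylalanine enzyme, measured 16.1, 16.5, 17.7, 17.0 and 13.7 CPM in Taz-KD hearts, against 13.9, 13.5, 16.7, 15.6 and 15.9 CPM in WT hearts. The genotypes overlapped, with the lowest values in R1798 and R1791 (log2 fold change 0.10 with an SE of 0.09, edgeR adjusted p = 0.442, 95% interval -0.09 to 0.29). Qars (ENSMUSG00000032604, chromosome 9 from 108507706 to 108515941 of GRCm38), the glutamine enzyme of the complex, measured 49.9, 45.2, 47.8, 43.7 and 44.4 CPM in Taz-KD hearts, against 40.6, 42.5, 41.3, 40.3 and 42.7 CPM in WT hearts. Here every Taz-KD heart lay above every WT heart by a narrow margin (log2 fold change 0.15 with an SE of 0.05, edgeR adjusted p = 0.0533), and the gene passed with DESeq2 (adjusted p = 0.0485), with at least 10 counts required in every library (0.0448) and without R1797 (0.0447).

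Among the Taz-KD hearts, the highest and the lowest were often the same across cytosolic genes. R1796 was the highest Taz-KD heart for 16 of 20 cytosolic genes and R1797 the lowest for 14. For the 16 mitochondrial genes, of which none rose, R1796 was the highest for 8, R1797 the lowest for 8 and R1798 the lowest for 7. Among WT hearts R3 was the lowest for 9 cytosolic and 10 mitochondrial genes. Genes of 1 library share its scaling, and no test was made of these ranks.

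Members of the multisynthetase complex and free synthetases spanned overlapping ranges in heart. Of the 8 cytosolic members of the complex 7 rose, with a median of 1.20 and a range from 0.15 (Qars) to 2.19 (Eprs). Of the 12 free synthetases 11 rose, with a median of 1.42 and a range from 0.10 (Farsa) to 2.85 (Gars). The structural classes of synthetases, which bind ATP with different folds, also overlapped. The median was 1.68 for 9 genes of class I and 0.90 for 10 of class II, leaving out Eprs, which has a domain of each, with ranges from 0.15 to 1.85 and from 0.10 to 2.85. Without Gars and Kars the median of the cytosolic genes was 1.41.

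The 3 scaffold genes rose in heart, each by less than 1 on the log2 scale. Aimp1 (ENSMUSG00000028029, chromosome 3 from 132660499 to 132684370 of GRCm38), whose product is also the precursor of a secreted cytokine, measured 36.3, 33.2, 38.4, 32.7 and 39.3 CPM in Taz-KD hearts, against 24.7, 23.4, 25.3, 27.2 and 27.0 CPM in WT hearts, without overlap (log2 fold change 0.50 with an SE of 0.07, edgeR adjusted p = 3.03e-04). Aimp2 (ENSMUSG00000029610, chromosome 5 from 143902704 to 143909847 of GRCm38), the core scaffold of the complex, measured 13.8, 15.4, 15.997, 14.2 and 13.4 CPM in Taz-KD hearts, against 10.7, 9.36, 10.3, 12.2 and 12.2 CPM in WT hearts, also without overlap (log2 fold change 0.41 with an SE of 0.09, edgeR adjusted p = 0.00582). Of its exon bases 29.4% overlap Eif2ak1 on the other strand, which measured 41.8 ± 3.26 CPM in Taz-KD and 35.2 ± 1.12 CPM in WT hearts (log2 fold change 0.25). The libraries mark the strand, but the strand setting of the counting is not given in the sources used here, and the part of Eif2ak1 in the counts of Aimp2 was not tested. Eef1e1 (ENSMUSG00000001707, chromosome 13 from 38644207 to 38659058 of GRCm38), whose product binds the methionine enzyme in the complex, measured 8.55, 9.62, 10.1, 5.93 and 6.11 CPM in Taz-KD hearts, against 3.86, 4.999, 4.76, 5.71 and 6.14 CPM in WT hearts. R1797 and R1798 lay within the range of the WT hearts (log2 fold change 0.66 with an SE of 0.17, edgeR adjusted p = 0.0149), and the gene did not pass without the hearts R2 and R3 (adjusted p = 0.0635). In a fit of all 20 libraries the adjusted p of Aimp2 was 0.481.

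The mitochondrial synthetases showed no common direction in heart. Their log2 fold changes ran from -0.38 to 0.27, 8 of 16 were above 0, and the 95% intervals of the 15 that did not pass lay between -0.54 and 0.48. Their summed level was 420.0 ± 23.0 CPM in Taz-KD and 418 ± 13.7 CPM in WT hearts (SD, n = 5 each). Cars2 (ENSMUSG00000056228, chromosome 8 from 11513977 to 11550783 of GRCm38), the mitochondrial cysteine enzyme, which also forms cysteine persulfide, measured 17.2, 17.1, 20.0, 16.7 and 15.9 CPM in Taz-KD hearts, against 21.99, 21.9, 22.9, 23.5 and 22.7 CPM in WT hearts. All Taz-KD hearts lay below all WT hearts, as 7.05% of all tested genes did, and the fall (log2 fold change -0.38 with an SE of 0.07, edgeR adjusted p = 0.00164) passed under all 21 alternatives tried in heart. Of its exon bases 5.83% overlap Naxd on the other strand. Rars2 (arginine, log2 fold change 0.27, adjusted p = 0.0519, edgeR) and Ears2 (glutamate, 0.22, adjusted p = 0.0924) had the largest positive values, and the genotypes did not overlap for Ears2. Rars2 passed under 7 alternatives, with an adjusted p of 0.0325 to 0.0492, and 4 of them left out R1791, R1800, R1797 or R1798 in turn. Iars2 (isoleucine), the most abundant mitochondrial synthetase per length in both tissues, averaged 113 ± 6.59 CPM in Taz-KD and 112 ± 2.86 CPM in WT hearts (0.00). Of its exon bases 22.9% overlap Rab3gap2 on the other strand. The least abundant per length in heart, Pars2 (proline), averaged 3.66 ± 0.990 CPM in Taz-KD and 3.94 ± 0.708 CPM in WT hearts (-0.10, 95% interval -0.54 to 0.33).

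Cytosolic and mitochondrial enzymes for the same amino acid differed in the size of the heart effect. In 17 pairings of a cytosolic with a mitochondrial gene, counting Eprs and Fars2 in 2 each, the cytosolic gene had the larger log2 fold change in 17, by 0.19 (Farsa with Fars2) to 2.33 (Sars with Sars2), with a median of 1.73. For cysteine the genes moved in opposite directions, with 1.82 for Cars and -0.38 for Cars2. For arginine and tryptophan the gap was smaller, 0.45 and 0.41. In muscle the cytosolic value was the larger in 15 of the 17 pairings, at the smaller scale described below.

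**Figure D3:**
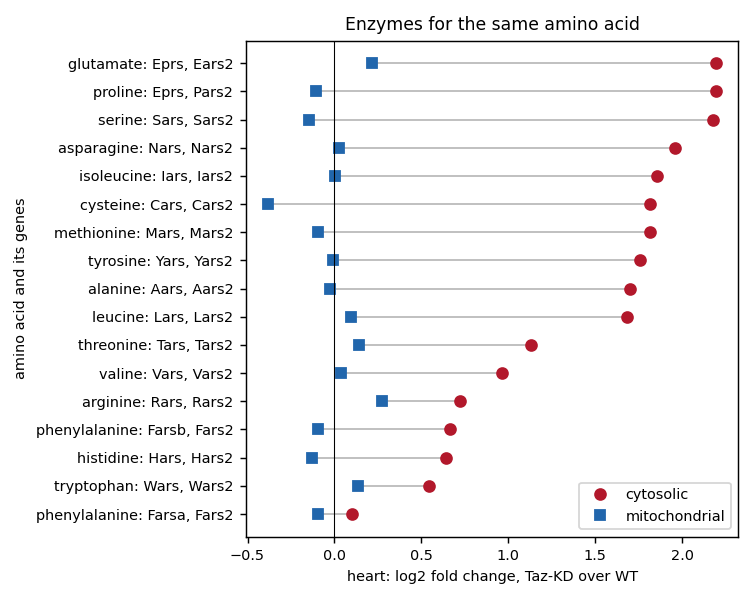
Heart log2 fold change (Taz-KD over WT) of the cytosolic (circles) and the mitochondrial gene (squares) for the same amino acid, joined by a line. The circle lies right of the square in all 17 pairings, and only the square of Cars2 is a gene that fell by the test.

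Hars and Hars2, the cytosolic and mitochondrial histidine enzymes, are neighbours with opposite strands and starts 197 bases apart on chromosome 18. Hars (ENSMUSG00000001380, chromosome 18 from 36766528 to 36783205 of GRCm38) measured 26.9, 26.6, 28.0, 24.3 and 28.1 CPM in Taz-KD hearts, against 15.7, 16.5, 15.1, 19.1 and 19.3 CPM in WT hearts, without overlap (log2 fold change 0.64 with an SE of 0.08, edgeR adjusted p = 1.25e-04). Hars2 (ENSMUSG00000019143, chromosome 18 from 36783008 to 36792562 of GRCm38) measured 20.8, 21.3, 20.1, 18.8 and 23.4 CPM in Taz-KD hearts, against 21.8, 24.5, 22.3, 23.4 and 22.1 CPM in WT hearts, with overlap (log2 fold change -0.13 with an SE of 0.07, edgeR adjusted p = 0.205). The ratio of Hars to Hars2 counts inside a library, which needs no scaling between libraries, was 1.28 ± 0.0699 in Taz-KD hearts and 0.752 ± 0.0891 in WT hearts (SD, n = 5 each, two-sided exact permutation p = 0.00794, the lowest value that 5 against 5 allows, 0.0159 after adjustment over the 4 ratios tested). In muscle it was 1.43 ± 0.0895 in Taz-KD and 1.40 ± 0.170 in WT (exact p = 0.762, adjusted 0.762). The p in heart rests on the same counts in which Hars rose without overlap, and is not separate support for that rise. The genes share 195 exon bases, and how reads there were counted is not given.

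Farsa and Farsb encode the subunits of a single enzyme, and their mRNAs differed in response in heart. Farsb averaged 50.7 ± 2.71 CPM in Taz-KD and 32.0 ± 1.93 CPM in WT hearts (log2 fold change 0.66 with an SE of 0.06, edgeR adjusted p = 8.71e-06), while Farsa did not pass. The ratio of Farsb to Farsa counts was 3.15 ± 0.310 in Taz-KD hearts and 2.13 ± 0.167 in WT hearts (exact permutation p = 0.00794, adjusted 0.0159, n = 5 each), with no overlap. This p rests on the same counts in which Farsb rose and Farsa did not pass, and is not separate support for the difference. In muscle the ratio was 1.89 ± 0.162 in Taz-KD and 1.82 ± 0.257 in WT (exact permutation p = 0.595, adjusted 0.762). Counts are not per length, so a ratio of 1 does not mean equal numbers of transcripts.

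**Figure D4:**
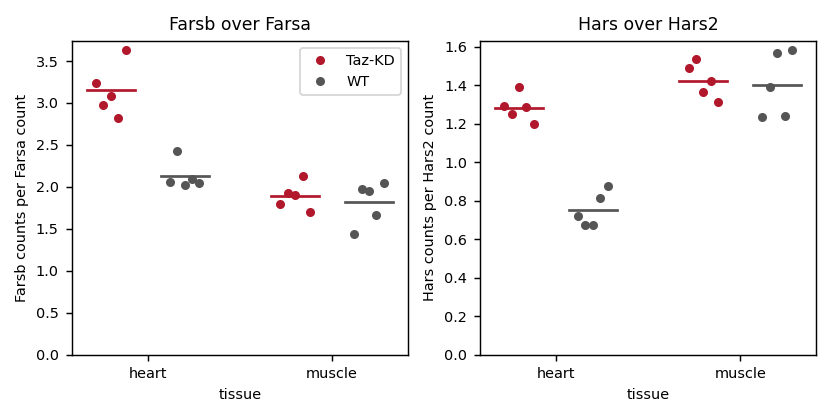
Ratio of counts of Farsb to Farsa (left) and of Hars to Hars2 (right) in each library (points), Taz-KD left of WT in heart and in muscle, with the mean of 5 libraries as a line. In heart the genotypes do not overlap for either ratio, and in muscle they do.

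Levels can be set beside each other between genes only per length, here as CPM per kilobase of annotated exon. That length joins the exons of all annotated transcripts of a gene and can exceed any single transcript. For Iars2 it is 8885 bases, against 5471 for its longest transcript, and for Aars 9282 against 5750. The order of the members, the top rank included, depends on this choice, and no other length was tried. On that scale the median level of the cytosolic genes was 16.8 in Taz-KD and 7.67 in WT hearts, and that of the mitochondrial genes 3.99 in Taz-KD and 3.92 in WT hearts. Gars was the highest of the 39 members in hearts of both genotypes, at 116 CPM per kilobase in Taz-KD and 16.1 in WT. The order below it differed. Iars (47.4), Nars (41.9), Mars (36.4) and Sars (35.4) came next in Taz-KD hearts, and Kars (14.3), Iars (13.1), Iars2 (12.6) and Dars (12.2) in WT hearts. Cars held rank 18 in Taz-KD and rank 33 in WT hearts, and Iars2 rank 15 in Taz-KD and rank 4 in WT hearts. In muscle the top member was Aimp2 in both genotypes, at 52.3 in Taz-KD and 39.5 CPM per kilobase in WT, against 8.80 in Taz-KD and 6.63 in WT hearts. The tissues come from separate tables. Although the labels give 1 preparation with rRNA depletion for both, Rn7sk, which has no poly(A) tail, averaged 8932 CPM in the WT hearts but 0.281 CPM in muscle of WT mice, which does not match the labelled preparation, and levels across tissues were not compared by a test.

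In skeletal muscle no member passed edgeR's test. Of 39 genes 0 rose and 0 fell, where 0.0124% of all tested genes rose and 0.00619% fell, and the lowest adjusted p of a member was 0.311. At an unadjusted p under 0.05 there were 14 of 20 cytosolic, 2 of 16 mitochondrial and 1 of 3 scaffold genes, all with higher values in Taz-KD. The share of all tested genes on that side was 3.67% (without A33 and A55 the counts were 7, 2 and 1, beside 372 of 16476 tested genes). DESeq2 called 1 member, Gars (adjusted p = 0.00227), beside 0.248% of all genes as higher. The median log2 fold change was 0.31 for cytosolic, 0.11 for mitochondrial and 0.32 for scaffold genes, beside -0.02 over all tested genes. Without the WT libraries A33 and A55 these medians were 0.18, 0.08 and 0.06, beside -0.00. Values above 0 were found for 19 of 20 cytosolic, 16 of 16 mitochondrial and 3 of 3 scaffold genes, beside 7705 of 16145 tested genes. Without A33 and A55 these counts were 20, 13 and 3, beside 8158 of 16476 tested genes. The summed cytosolic level was 1719 ± 78.0 CPM in Taz-KD and 1364 ± 197 CPM in WT muscle (SD, n = 5 each), a ratio of 1.26. Its WT values were lowest in A55 (1130.2 CPM), which was the lowest WT library for 15 of the 20 genes. Of the markers of other cell types in muscle none passed edgeR's test. With an unadjusted p under 0.05, 5 of 5 tested adipocyte markers (median -3.34), 4 of 7 fibroblast markers (median -0.53) and 3 of 6 macrophage markers (median -0.53) were lower in Taz-KD. So were 2 of 4 smooth muscle (median -0.64), 2 of 7 cardiomyocyte (median -0.86) and 1 of 6 endothelial markers (median -0.24). Over all 16145 tested genes 2408 had such a p, 592 of them with higher values. With DESeq2 1 adipocyte and 1 fibroblast marker were lower. The part of these marker lists in the synthetase values was not tested.

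Muscle libraries are given in the order A34, A39, A52, A56 and A58 for Taz-KD and A33, A40, A51, A55 and A57 for WT. Gars measured 110.2, 105, 77.5, 94.0 and 111 CPM in Taz-KD muscle, against 56.3, 70.7, 67.4, 53.3 and 68.0 CPM in WT muscle. All Taz-KD values exceeded all WT values (log2 fold change 0.65 with an SE of 0.13, edgeR adjusted p = 0.311), and without A33 and A55 DESeq2 still called it (adjusted p = 0.0340). The genotypes did not overlap, with higher values in Taz-KD, for 8 members (Cars, Gars, Mars, Nars, Yars, Ears2, Lars2 and Eef1e1), beside 1.06% of all tested genes, and for 0 with lower values, beside 1.08%. Mars measured 75.2, 78.5, 72.2, 74.6 and 79.9 CPM in Taz-KD muscle, against 47.1, 57.1, 56.6, 42.0 and 70.0 CPM in WT muscle, and it passed in the fit of all 20 libraries (adjusted p = 0.0493), as did Gars (0.0112). Ears2, the mitochondrial glutamate enzyme, measured 8.27, 7.62, 8.38, 9.66 and 9.78 CPM in Taz-KD muscle, against 6.94, 6.499, 6.84, 5.36 and 7.19 CPM in WT muscle, and also passed in that fit (0.04997). The remaining members passed in no fit of the muscle libraries. Aimp2 varied most, with 78.9, 91.0, 104, 101 and 58.8 CPM in Taz-KD muscle, against 57.7, 62.7, 94.2, 20.7 and 91.6 CPM in WT muscle. The WT library A55 was low for Aimp2 and also held the lowest Eif2ak1, the overlapping gene, at 29.1 CPM against 49.6 to 70.2 CPM in Taz-KD muscle. Vars had the smallest difference, with 53.1 ± 2.62 CPM in Taz-KD and 53.2 ± 9.29 CPM in WT muscle (-0.00).

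Although no member passed edgeR's test in muscle, the order of the cytosolic genes was shared between the tissues, which came from different mice. The 10 with the largest log2 fold changes in heart were also the 10 with the largest in muscle (10 of 10), where they ran from 0.32 (Nars) to 0.65 (Gars), while the other 10 ran from -0.00 (Vars) to 0.30 (Tars). Without A33 and A55 the overlap was again 10 of 10, with 0.20 to 0.53 against 0.01 to 0.17. Across the 20 genes the correlation of the log2 fold changes of heart and muscle was r = 0.80 (Spearman's rho 0.76), across the 16 mitochondrial genes r = 0.36 (rho 0.11), and across the 14726 genes tested in both tissues r = 0.17 (rho 0.20). These are descriptions across genes, which share their libraries and are not independent replicates.

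**Figure D5:**
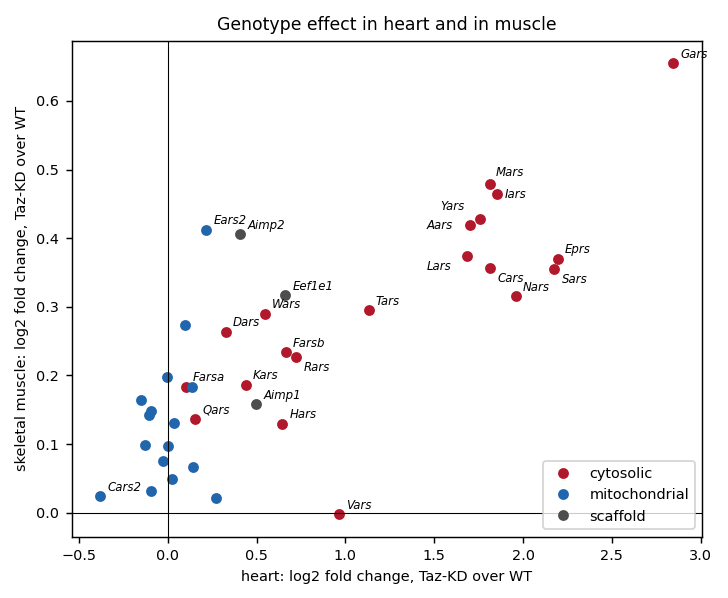
Log2 fold change (Taz-KD over WT) in heart (horizontal axis) and in skeletal muscle (vertical axis, a shorter scale) for the 39 genes, coloured by role, with all cytosolic and scaffold genes and 2 mitochondrial genes named. The 10 cytosolic genes farthest right are also the 10 highest cytosolic genes.

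The size of the genotype effect differed between the tissues for 13 members. The interaction of tissue and genotype in a fit of all 20 libraries was positive, a larger effect in heart, for 12 of 20 cytosolic genes, beside 3.07% of 20612 tested genes. These were Gars, Eprs, Sars, Nars, Cars, Iars, Mars, Yars, Lars, Aars, Vars and Tars. The difference of the log2 fold changes for Gars was 2.13 (SE 0.16, edgeR adjusted p = 5.82e-07), the largest. For Tars, the smallest of the 12, it was 0.77 (SE 0.18, edgeR adjusted p = 0.0142). All 10 cytosolic genes with the largest heart effects were among them, which is tied to their choice by the same heart values. For the other 8 the 95% intervals ran from -0.40 to 0.81, and Hars missed the threshold narrowly (0.45, SE 0.13, edgeR adjusted p = 0.0508), which it passed under 14 of 25 alternatives. Cars2 had a more negative effect in heart (-0.47, SE 0.11, edgeR adjusted p = 0.0191), beside 1.55% of all tested genes, and its adjusted p was 0.236 with library sizes in place of TMM factors. No scaffold gene passed. Aimp1 passed without A33 and A55 (adjusted p = 0.0285), as did Farsb (0.00230), Rars (0.0286) and Hars (0.0180).

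Genes that act with the synthetases were read from lists chosen by function, beside the 14.4% of all tested genes that rose in heart and the 10.3% that fell. Of 13 partners in tRNA charging and its proofreading 4 rose in Taz-KD hearts and 0 fell (median 0.14), among them Ptrhd1 (0.44) and the D-aminoacyl-tRNA deacylase gene Dtd1 (0.53). The mitochondrial members of that list, which make glutaminyl-tRNA by amidation (Qrsl1, Gatb, Gatc) or formylate methionyl-tRNA (Mtfmt), did not pass, with log2 fold changes from -0.21 to 0.23. Of 13 genes for tRNA export and maturation 6 rose and 1 fell (median 0.24). Xpot, the tRNA exportin, led them, with 147 ± 23.1 CPM in Taz-KD and 48.1 ± 0.744 CPM in WT hearts (log2 fold change 1.62, adjusted p = 1.77e-07, edgeR), and the tRNA splicing endonuclease gene Tsen54 rose as well (0.57). Of 9 elongation factors that receive charged tRNA or recycle on it 5 rose and 1 fell. Eef1a1, which brings charged tRNA to the cytosolic ribosome, measured 1934 ± 91.7 CPM in Taz-KD and 477 ± 79.8 CPM in WT hearts (log2 fold change 2.02), Eef2 changed by 0.71 and Eef1b2 by 0.74, and the gene that fell was Tufm (-0.45), its mitochondrial counterpart. In muscle Eef1a1 measured 347 ± 60.7 CPM in Taz-KD and 590.4 ± 336 CPM in WT muscle (log2 fold change -0.77, edgeR adjusted p = 0.322), the 1 factor lower there at an unadjusted p under 0.05, and none was higher with that p, with edgeR's adjusted p or with DESeq2. Eef1a1 has processed pseudogenes, and how reads shared with them were counted is not given.

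All 10 listed genes of the integrated stress response rose in Taz-KD hearts (median 3.35), among them Psat1 (4.65) and Phgdh (5.93) of serine synthesis and Trib3 (4.86). In muscle 0 of the 10 passed edgeR's test (median 0.46), 3 were higher at an unadjusted p under 0.05 and 1 with DESeq2. Another, Phgdh, was lower at an unadjusted p under 0.05, with 3.87 ± 1.65 CPM in Taz-KD and 14.4 ± 15.6 CPM in WT muscle (log2 fold change -1.89, edgeR adjusted p = 0.316). Of the 13 export and maturation genes 0 passed in muscle with edgeR and 0 as higher with DESeq2, and 3 were higher at an unadjusted p under 0.05. There Xpot measured 45.8 ± 7.59 CPM in Taz-KD and 34.4 ± 4.33 CPM in WT muscle (log2 fold change 0.42, adjusted p = 0.311, edgeR). The stress response list overlaps what the study itself examined in these samples and is not independent evidence of direction. Of the cell type markers in heart, 3 of 6 endothelial and 3 of 5 red cell genes fell, as did 1 of 8 cardiomyocyte genes (Pln, -0.89), while 1 of 4 tested skeletal muscle fibre genes rose (Acta1, 1.82), and no fibroblast, smooth muscle, macrophage, lymphocyte, adipocyte or Schwann cell marker passed. Summed adipocyte markers were highest in the Taz-KD heart R1793 (124 CPM, median of Taz-KD 6.57) and the WT heart R3 (62.3 CPM, median of WT 5.53), while the count of cytosolic genes that rose was 18 to 19 when each heart was left out in turn. The part of these markers in the synthetase values was not tested.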

How the data were processed

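Total RNA of frozen heart and femur muscle was depleted of rRNA and made into strand-marking libraries (150 bp reads), per the labels, although the tissues differed greatly in Rn7sk. The authors aligned reads with STAR to mm10/GRCm38 and counted them per gene with featureCounts 1.6.4, and the deposited tables hold raw counts. The sources used here give neither the annotation release nor the strand and multi-mapping settings. The tables carry no columns of other samples and no comparison columns.

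Gene symbols, exon lengths and overlaps were taken from GENCODE M21. Of the 39 members, 15 share exon bases with another gene. Each tissue was fitted by genotype in edgeR 4.0.16 (TMM factors, low-count filter by expression, robust quasi-likelihood test, Benjamini-Hochberg adjustment over all tested genes), and a fit of all 20 libraries tested the interaction of tissue and genotype. Fold changes are Taz-KD over WT on the log2 scale. Ratios within libraries, which were not among the planned comparisons, were tested by exact permutation. Near copies were searched with blastn 2.17.0. Alternatives used DESeq2 1.42.0, limma 3.58.1, other scaling, other filters and fewer libraries, and those without A33 and A55 were added after the data had been seen. Scripts were tested on simulated data.

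No 2 libraries held identical counts. The labels name 1 animal per library, and p-values measure the spread between animals. Members and gene lists were chosen with earlier results of these data known. Values in every library are given for the 6 cytosolic genes with the largest rise in heart, cytosolic genes that did not pass there, mitochondrial genes that passed in either tissue, the scaffold genes, members called in muscle, and Hars with Hars2. From each other list at most 3 genes are named, by the smallest adjusted p in heart, and some of these are not reported here. Mars, Ears2, Aimp2, Phgdh and Eef1a1 in muscle, Tufm, Pln, Acta1, and the mitochondrial partners of tRNA charging were named after their values had been seen.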

Additional observations from a re-analysis of the deposited data

Results flagged for a closer look

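In each group of 5 libraries the highest or lowest value of a member was compared with its nearest neighbour relative to the range of the group (Dixon's test), and 7 of 156 groups held a value that stood apart, where chance gives about 1 in 20 groups. In heart these were Farsb in the WT library R3 (28.6 CPM), Yars in the WT library R1791 (19.8 CPM), and Fars2 in the Taz-KD library R1796 (34.4 CPM) and in the WT library R1795 (37.0 CPM). In muscle they were Iars in the Taz-KD library A34 (127 CPM), and Fars2 (17.6 CPM) and Yars2 (11.02 CPM) in the Taz-KD library A52.

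The genotype effect differed between heart and muscle, by the interaction term in edgeR, for 13 members. The heart effect minus the muscle effect, on the log2 scale, was 2.13 for Gars, 1.77 for Eprs, 1.76 for Sars, 1.58 for Nars, 1.40 for Cars, 1.33 for Iars, 1.28 for Mars, 1.27 for Yars, 1.25 for Lars, 1.22 for Aars, 0.89 for Vars, 0.77 for Tars and -0.47 for Cars2. Tissue cannot be told apart from the animals and from the library preparation of each tissue.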

How the results depend on the processing

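Under 21 alternatives in heart, members lost a call in 3 and gained one in 10 of 819 comparisons. Under 22 in muscle they lost it in 0 and gained it in 5 of 858, and under 25 for the difference between tissues they lost it in 1 and gained it in 25. No called value changed sign. No paired analysis was possible because the groups share no replicate numbers, each library being a different mouse. For each change below the cause was not tested.

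In heart, 1 mitochondrial gene (Rars2) rose with library sizes only, with no filter and with at least 10 counts in every library, and 0 to 1 when each library was left out. The fit of all 20 libraries called 1372 genes higher and 715 lower over all genes, against 2804 and 1999 in the fit of heart alone. Upper-quartile factors called 2445 higher and 2511 lower, so that 49.3% of calls were higher, against 58.4%.

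In muscle, 1 cytosolic gene rose with DESeq2, with and without A33 and A55, and 2 in the fit of all 20 libraries, where 1 mitochondrial gene rose too. The scaffold median was 0.061 with edgeR and 0.058 with DESeq2 without A33 and A55, and 0.18 to 0.35 when each library was left out. Over all genes 2 were higher and 1 lower in edgeR, against 38 and 106 with DESeq2, 32 and 135 in the fit of all 20 libraries, and 25 and 14 with DESeq2 without A33 and A55. With library sizes only 1 was higher, and leaving out each library gave 2 to 4.

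For the difference between tissues, library sizes only moved the median of all genes to 0.21, against 0.02, and the medians of the members to 1.24 (cytosolic), -0.031 (mitochondrial) and 0.45 (scaffold), which relative to all genes were 1.03, -0.24 and 0.25, against 1.03, -0.24 and 0.26 with TMM factors. In muscle the same setting moved the median of all genes to -0.16. Of mitochondrial genes, 0 were more negative in heart with library sizes only, 2 with DESeq2 (Cars2 and Sars2), and 1 to 2 when each library was left out, the second being Sars2 without A40. Aimp1 was the 1 scaffold gene called, with library sizes only and without A33 and A55, where the cytosolic median was 1.20. Over all genes 632 were more positive and 320 more negative, against 986 and 610 with DESeq2, and 421 were more positive without the hearts R2 and R3. Leaving out each library gave 417 (without R1796) to 1402 (without A57) and 190 (without R1796) to 640 (without A57).

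Every member had 66 counts or more in every library, and intervals rest on 5 animals per group.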
